A study of Mus musculus with 4 samples.

Results

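The genes described here are 10 members of the NRF2 antioxidant response: Nfe2l2 (which encodes NRF2), Keap1, Nqo1, Gclm, Gclc, Slc7a11, Txnrd1, Srxn1, Prdx1 and Gsr. They were chosen by name, with earlier results of these data known, and all 10 were found among the 35869 genes listed for each sample. Their RNA levels were followed in CD45+ cells, the leukocytes of the tissue, taken with CD45 microbeads from the stromal vascular fraction (the non-adipocyte cells) of epididymal white adipose tissue (eWAT). The donors were male wild-type C57BL/6 mice that received either a normal diet (ND, n = 2 samples) or a high-fat diet (HFD, n = 2 samples) for 12 weeks, starting at 8 weeks of age. The question put to the data was how the levels of these genes in adipose leukocytes differed between the diets. How many mice went into a sample is not given in the sources used here, so the p-values measure only the spread between these samples, which may be technical.

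NRF2 is a transcription factor that KEAP1, an adaptor of a CUL3 ubiquitin ligase, holds at a low level by marking it for degradation. Oxidants and electrophiles modify cysteines of KEAP1, NRF2 then builds up, and with a small MAF protein it binds antioxidant response elements (AREs) in front of genes for glutathione synthesis, the thioredoxin and peroxiredoxin cycle and quinone reduction. BACH1 competes for the same elements, and because NRF2 is controlled largely through its protein, the RNA level of Nfe2l2 is not a measure of NRF2 activity. In macrophages these enzymes are known for handling the peroxides that go with phagocytosis and lipid uptake.

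All values are TPM, a level of transcripts per unit of length scaled so that every sample has the same total, deposited to 1 decimal. Depth was not given, and the steps between low values put it at about 37.5, 44.4, 46.8 and 41.0 (in units of 1e6 gene-assigned reads) in ND replicates 1 and 2 and HFD replicates 1 and 2. Ptprc, the gene for CD45, was at 54.5, 59.4, 55.3 and 53.7 TPM in that order, and 10 macrophage markers summed to 14094 and 13637 in ND and 11532 and 12235 TPM in HFD. Of these 10 markers 2 (Adgre1 and Cd68) were called higher in HFD and 1 (C1qa) lower, beside 8.08% and 10.3% of all genes tested. Both HFD values lay above both ND values in 2 of them and below in 6, beside 34.1% and 32.8% of all genes tested. Cell type markers differed with diet: the 8 lipid-associated macrophage markers were all called higher in HFD, with sums of 1240 and 1297 in ND and 8541 and 8926 TPM in HFD, while all 6 resident macrophage, 6 T cell and 5 B cell markers that were tested were called lower. Both HFD samples also stood apart from each other. Spermatid genes summed to 6716 TPM in HFD replicate 1 against 1787 to 2057 TPM in the others, and 8 fibroblast genes summed to 6132 TPM in HFD replicate 2 and to 3067 in HFD replicate 1, against 602 and 647 TPM in ND. The 11 genes of the dissociation response summed to 29638 and 28185 in ND and 16283 and 15921 TPM in HFD. In these bulk samples, a change in the number of cells of a type and a change in RNA per cell cannot be told apart.

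Of the 10 genes 3 rose in HFD and 0 fell. A gene was called where its limma p, adjusted by the Benjamini-Hochberg method over the 16849 genes with at least 1 TPM in at least 2 samples, was under 0.05 and the change was at least 1.5-fold. Of the 10 members 9 passed that filter, Slc7a11 being the exception. Prdx1, Srxn1 and Txnrd1, all of the thioredoxin and peroxiredoxin branch, were called higher, 0 members were called lower and 6 were not called. Of all genes tested 18.4% were called, 8.08% as higher and 10.3% as lower. At an unadjusted p under 0.05 there were 5 of the 9 members, of which 0 were lower, beside 42.3% of all genes tested in either direction. With the adjusted p alone, 4 members were higher, where 13.2% of all genes tested were. In 6 of the 9 tested members both HFD values lay above both ND values, as in 34.1% of all genes tested, and in 1 member, Keap1, both lay below, as in 32.8%. The median log2 difference, HFD minus ND on the log2(TPM + 1) scale, was 0.48 over the 9 members and 0.06 over all genes tested. Summed over the 10 members, RNA made up 0.0943% and 0.0988% of the total TPM in ND and 0.196% and 0.249% in HFD, and Prdx1 made up 51.6% and 51.1% of that sum in ND and 65.5% and 66.0% in HFD.

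**Figure D1:**
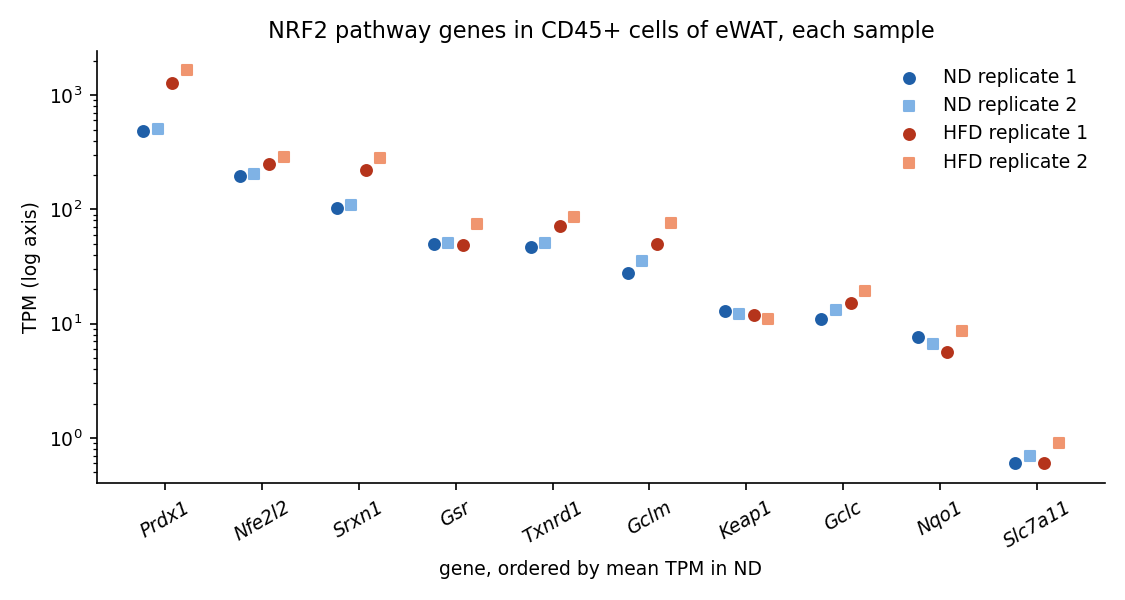
TPM of each of the 10 members in each of the 4 samples, on a log axis, with ND and HFD samples as separate points. Prdx1 runs from 486.6 TPM in ND replicate 1 to 1645.1 TPM in HFD replicate 2, while Slc7a11 stays under 1 TPM throughout.

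Prdx1 encodes peroxiredoxin 1, a cytosolic enzyme that reduces hydrogen peroxide with thioredoxin. The gene lies on the plus strand of chromosome 4 (chr4:116685544-116700822, mm10, GENCODE vM21, 7 exons, merged over all transcripts here and below). It was the most abundant member in all 4 samples, at 486.6 and 505.1 in ND and 1280.7 and 1645.1 TPM in HFD. Both HFD samples stood far above both ND samples. Mean TPM was 496 ± 13.1 under ND and 1463 ± 258 under HFD (± SD, n = 2 for each diet), a 2.95-fold ratio and a log2 difference of 1.55 (SE 0.14, 95% interval 1.12 to 1.98, limma adjusted p = 0.0120).

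Srxn1 encodes sulfiredoxin, which restores peroxiredoxins whose cysteine has been over-oxidized, and lies on the plus strand of chromosome 2 (chr2:152105516-152111376, 2 exons). Its levels were 103.2 and 108.8 in ND and 219.7 and 281.0 TPM in HFD. The HFD samples lay above the ND samples with a wide gap. The log2 difference was 1.22 (SE 0.14, 95% interval 0.79 to 1.65, limma adjusted p = 0.0176), a 2.36-fold ratio of means. Because Prdx1 rose further, the ratio of Srxn1 to Prdx1 TPM went from 0.212 and 0.215 in ND to 0.172 and 0.171 in HFD, and replicates of a diet were closer to each other in this ratio than the diets were.

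Txnrd1 encodes cytosolic thioredoxin reductase, the selenoenzyme that returns oxidized thioredoxin to its active form with NADPH. It lies on the plus strand of chromosome 10 (chr10:82833951-82897712, 15 exons). Its levels were 46.9 and 50.4 in ND and 72.2 and 85.1 TPM in HFD, with no overlap. The log2 difference was 0.68 (SE 0.11, 95% interval 0.36 to 0.997, limma adjusted p = 0.0291), a 1.62-fold ratio of means. Among the called members it was the least stable: over 9 alternatives with all samples its adjusted p ran from 0.0198 to 0.0656 and the call was lost in 4, and without HFD replicate 2 the log2 difference was 0.56 (limma adjusted p = 0.0514). All 3 calls were lost when either ND sample was left out, a setting in which 0 of 16849 genes were called and 3862 or 4024 had an unadjusted p under 0.05, while Prdx1 and Srxn1 kept their calls without either HFD sample.

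**Figure D2:**
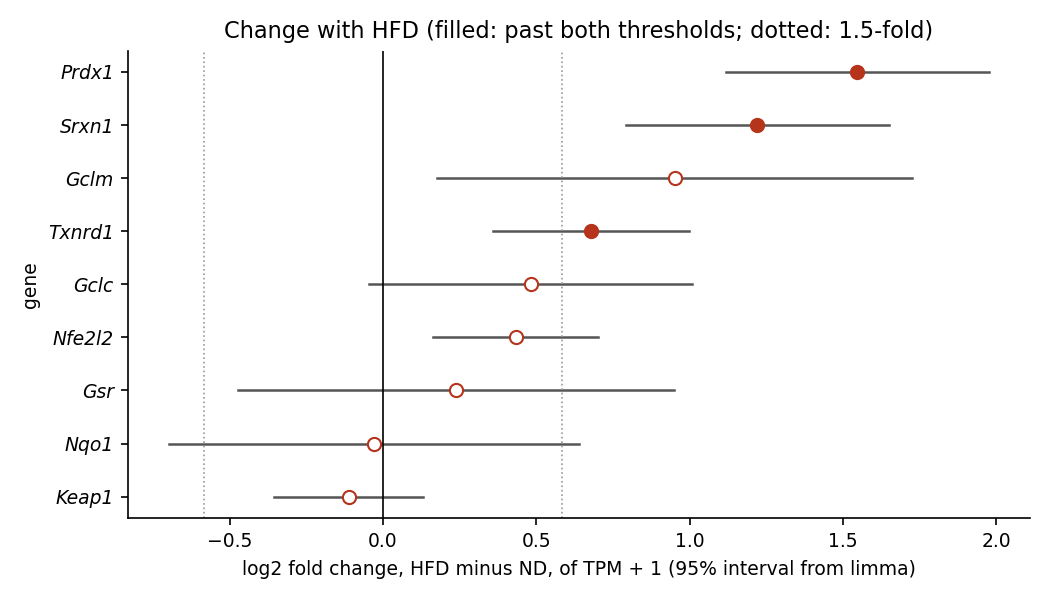
Log2 difference of each tested member (HFD minus ND, log2(TPM + 1) scale) with its 95% interval, filled where called and open where not, and dotted lines at 1.5-fold. The intervals of Prdx1, Srxn1, Txnrd1, Gclm and Nfe2l2 lie above 0, and the widest are those of Gclm, Gsr and Nqo1.

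The 3 called genes and Gclm are shown with the 300 bases around their transcription starts, because the ARE through which NRF2 acts is usually sought there. The windows run from 250 bases before to 50 after the start in RefSeq (GRCm38.p6), read 5' to 3' on the gene's own strand, and 8 of the 10 members matched the promoter table. Capitals mark matches to TGACNNNGC, the ARE core, or to TGAGNNNGC, which was added after the windows had been seen, on either strand (a minus-strand match appears as its reverse complement).
Prdx1, chr4:116685349-116685648 (+): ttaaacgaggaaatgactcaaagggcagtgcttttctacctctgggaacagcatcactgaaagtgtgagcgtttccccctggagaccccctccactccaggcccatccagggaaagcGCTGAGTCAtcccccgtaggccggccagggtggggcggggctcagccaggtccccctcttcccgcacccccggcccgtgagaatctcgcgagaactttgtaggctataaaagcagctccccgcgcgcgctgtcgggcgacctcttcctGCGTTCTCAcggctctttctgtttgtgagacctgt
Srxn1, chr2:152105274-152105573 (+): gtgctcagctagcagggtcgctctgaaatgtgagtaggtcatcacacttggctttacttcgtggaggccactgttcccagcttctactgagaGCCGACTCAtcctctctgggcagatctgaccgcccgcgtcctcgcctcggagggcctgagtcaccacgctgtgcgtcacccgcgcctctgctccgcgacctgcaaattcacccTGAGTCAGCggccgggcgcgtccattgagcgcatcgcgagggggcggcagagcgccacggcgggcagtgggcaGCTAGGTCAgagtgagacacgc
Txnrd1, window 2 of 3, chr10:82858956-82859255 (+): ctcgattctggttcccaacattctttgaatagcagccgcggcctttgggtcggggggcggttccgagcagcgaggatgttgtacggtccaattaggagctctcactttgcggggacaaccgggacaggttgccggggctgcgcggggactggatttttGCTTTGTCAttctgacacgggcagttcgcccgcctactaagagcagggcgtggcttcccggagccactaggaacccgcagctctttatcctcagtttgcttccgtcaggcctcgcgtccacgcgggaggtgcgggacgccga
Gclm, chr3:122245307-122245606 (+): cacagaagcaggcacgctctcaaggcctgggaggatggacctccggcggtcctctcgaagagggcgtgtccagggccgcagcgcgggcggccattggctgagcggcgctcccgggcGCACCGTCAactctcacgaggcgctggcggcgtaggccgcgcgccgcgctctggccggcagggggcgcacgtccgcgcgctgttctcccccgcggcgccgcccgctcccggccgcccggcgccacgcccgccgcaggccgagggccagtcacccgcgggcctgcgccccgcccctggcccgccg

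The core TGACNNNGC occurred in 5 of the 8 matched members, Nfe2l2, Gclm, Txnrd1, Srxn1 and Prdx1, and in 14.0% of all 27025 genes with a window. In Prdx1 the match was TGACTCAGC on the minus strand with its first base at -133 from the start site, and it overlaps TGAGTCA, the letters of an AP-1 site. In Gclm it was TGACGGTGC at -134 and in Txnrd1 TGACAAAGC at -92, both on the minus strand, and the other 2 windows of Txnrd1 held no match. In Nfe2l2 it was TGACTCCGC on the plus strand at -240, and in Srxn1 TGACCTAGC on the minus strand at 29, downstream of the start. The form TGAGNNNGC was in 3 of 8 members (Slc7a11, Srxn1 and Prdx1) against 19.8% of genes, and TGAGTCA, also added after the windows had been seen, in Srxn1 and Prdx1 against 5.95% of genes. In Srxn1, TGAGTCAGC stands on the plus strand at -45. Neither 9-letter form was found in the Keap1 and Nqo1 windows. A match is a run of letters and no measured binding site.

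Of the sensor pair, Nfe2l2 was abundant and Keap1 was low, and neither was called. Nfe2l2 (chr2:75675513-75704641, minus strand, 6 exons) was at 195.5 and 203.9 in ND and 250.9 and 290.2 TPM in HFD. Its HFD values lay above its ND values, with a log2 difference of 0.43 (SE 0.09, 95% interval 0.16 to 0.70, limma adjusted p = 0.0488), a 1.35-fold ratio of means, so its adjusted p was just under the threshold and its fold change under the limit. The adjusted p ran from 0.0356 to 0.147 over the 9 alternatives with all samples and was above 0.05 in 6 of them. Keap1 (chr9:21229730-21239361, minus strand, 6 exons) was at 12.8 and 12.1 in ND and 11.9 and 11.0 TPM in HFD. The Keap1 values of the diets did not overlap, yet they lay close together and the log2 difference of -0.11 had a 95% interval of -0.35 to 0.13 (limma adjusted p = 0.385). Keap1 shares 510 exon bases with the antisense gene Gm16754, a symbol not among the listed genes, and the strand setting of the counting is not given in the sources used here. The ratio of Nfe2l2 to Keap1 TPM was 15.3 and 16.9 in ND and 21.1 and 26.4 in HFD.

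The glutathione genes gave higher values in HFD for the synthesis enzyme and no call. Gclm, the modifier subunit of glutamate-cysteine ligase, was at 28.0 and 35.2 in ND and 50.2 and 75.7 TPM in HFD (chr3:122245557-122270732, plus strand, 8 exons). The diets did not overlap, but replicates of each diet were far apart, and the log2 difference of 0.95 (SE 0.26) had a 95% interval of 0.18 to 1.73 and a limma adjusted p of 0.0808. Gclm also shares 296 exon bases with Gm17494 on the other strand and 244 with the pseudogene Gm6061, and neither symbol is among the genes listed in the files. Gclc, the catalytic subunit of the same ligase, was at 10.9 and 13.3 in ND and 15.2 and 19.5 TPM in HFD (chr9:77754535-77794485, plus strand, 18 exons). Its log2 difference was 0.48 (95% interval -0.04 to 1.01, limma adjusted p = 0.139). The ratio of Gclm to Gclc TPM was 2.57 and 2.65 in ND and 3.30 and 3.88 in HFD.

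Gsr, which reduces oxidized glutathione, was at 50.3 and 51.3 in ND and 48.5 and 74.5 TPM in HFD (chr8:33652523-33698163, plus strand, 15 exons). The HFD samples lay on both sides of the ND samples, and the log2 difference of 0.24 had a 95% interval of -0.47 to 0.95 (limma adjusted p = 0.519). Slc7a11, the cystine importer that feeds glutathione synthesis, was at 0.6 and 0.7 in ND and 0.6 and 0.9 TPM in HFD (chr3:49892526-50443614, minus strand, 13 exons). It was under 1 TPM in every sample and was not tested, with about 119 and 161 reads in ND and 135 and 176 in HFD estimated from the steps. Its partner chain in the transporter, Slc3a2, was at 109.0 and 107.7 in ND and 91.4 and 101.3 TPM in HFD (log2 difference -0.17, limma adjusted p = 0.165).

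Nqo1, a quinone reductase often read as a marker of NRF2 activity, was low and did not differ detectably. Its levels were 7.7 and 6.7 in ND and 5.7 and 8.6 TPM in HFD (chr8:107388225-107403206, minus strand, 6 exons). HFD replicate 1 was the lowest and HFD replicate 2 the highest of the 4 samples. The log2 difference of -0.03 had a 95% interval of -0.70 to 0.64 (limma adjusted p = 0.933), so a change of 1.5-fold in either direction lay inside it.

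Within HFD the members were not even. HFD replicate 2 was above HFD replicate 1 in 8 of the 9 tested members, all but Keap1, where this held for 33.7% of all genes tested, and as a log2 ratio of replicate 2 to replicate 1 the median was 0.35 over the members and -0.07 over all genes tested. Gsr (1.54-fold), Nqo1 (1.51-fold) and Gclm (1.51-fold) differed most between the HFD samples, and Txnrd1 (1.18-fold) and Nfe2l2 (1.16-fold) least among those that were higher. Between the ND samples the median log2 ratio was 0.06 over the members and 0.06 over all genes tested. Fibroblast genes moved the same way between the HFD samples, by 1.99-fold as the median of 8 genes (range 1.88 to 2.17). The lipid-associated macrophage genes differed by 1.02-fold as the median of 8, erythroid and T cell genes by 1.75-fold and 1.66-fold, and spermatid genes stood at a ratio of 0.283. The part of these cells in the members' values was not tested. Without HFD replicate 2, 2 members were called higher, beside 15.7% of all genes tested, and without HFD replicate 1, 3 were, beside 8.07%. Each remaining HFD sample still had fibroblast sums above those of ND.

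**Figure D3:**
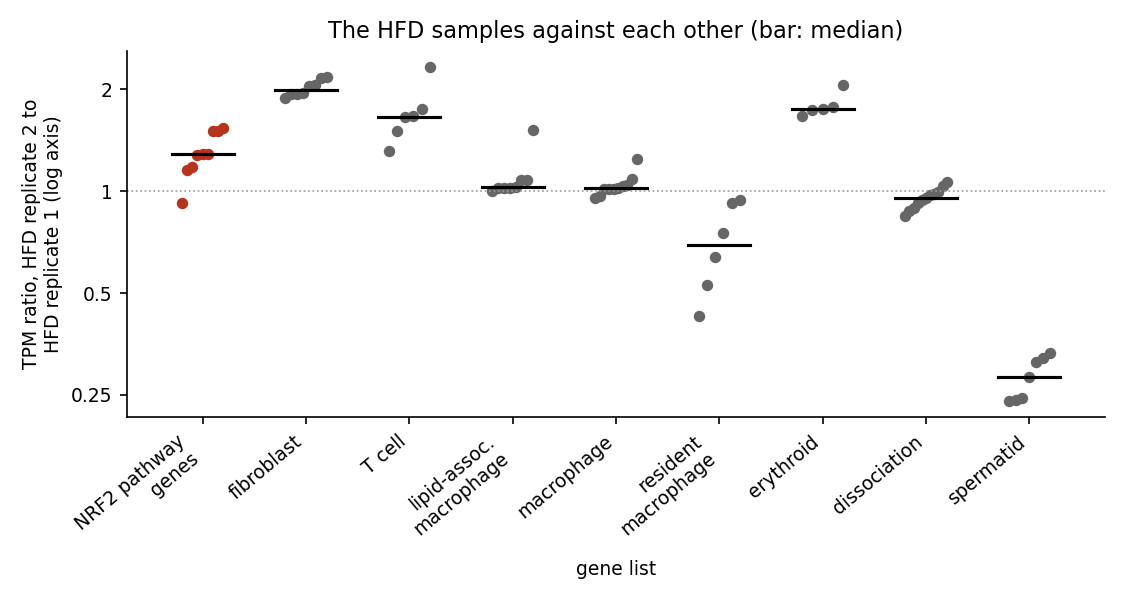
Ratio of HFD replicate 2 to HFD replicate 1 for the tested members and for the tested genes of 8 marker lists, on a log axis, each point a gene and each bar a median. Members lie between 0.924 (Keap1) and 1.54 (Gsr), fibroblast genes near 1.99 and spermatid genes near 0.283.

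The other genes of the pathway gave a mixed picture. Of 14 regulators and partners of the KEAP1 and NRF2 pair, 13 were tested and 0 were called, beside 18.4% of all genes tested. With a pseudocount of 0.1 or without the 50 most abundant genes 1 was called. An unadjusted limma p under 0.05 was found for 6, where 42.3% of all genes tested had one, and the median log2 difference was 0.02. Sqstm1, the autophagy receptor p62 that binds KEAP1, was at 587.9 and 583.9 in ND and 575.0 and 614.5 TPM in HFD (limma adjusted p = 0.774), and its direction turned under 3 alternatives with all samples. Bach1 was at 65.9 and 70.9 in ND and 64.3 and 67.9 TPM in HFD (limma adjusted p = 0.627). The ranges of the diets overlapped for both genes.

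Of 23 other NRF2 targets 21 were tested, 7 were called higher and 1 lower, beside 8.08% and 10.3% of all genes tested, and the median log2 difference was 0.38. Both HFD values lay above both ND values in 13 of the 21 and below in 7, beside 34.1% and 32.8% of all genes tested. With the replicate block 1 of the 8 calls was left, and Cbr3, Txn1 and Abcc1 were among those lost (limma adjusted p = 0.0555, 0.0555 and 0.0682). Akr1b8, an aldo-keto reductase, had the largest increase of these: 40.8 and 48.1 in ND and 344.0 and 536.9 TPM in HFD, a log2 difference of 3.25 (SE 0.26, limma adjusted p = 0.00999). It has close paralogs among which counting could split reads, so its level is uncertain. Cbr3, a carbonyl reductase, rose from 17.4 and 17.2 TPM to 34.3 and 40.6 TPM (log2 difference 1.07, limma adjusted p = 0.0131), and Txn1, the thioredoxin that PRDX1 and TXNRD1 share, from 281.5 and 269.0 TPM to 471.5 and 538.5 TPM (0.87, limma adjusted p = 0.0128). Catalase (Cat), Cbr1 and the pentose phosphate enzymes Pgd and Taldo1, named after their values were seen, were the other 4 that rose. Abcc1, a glutathione conjugate exporter, fell from 35.3 and 37.6 TPM to 22.5 and 25.1 TPM (log2 difference -0.60, limma adjusted p = 0.0239), a call also lost with a pseudocount of 5 (-0.53) and without HFD replicate 1 (-0.52).

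Hmox1, the heme oxygenase that both NRF2 and BACH1 control, was among the 7 of these targets that were lower in both HFD samples. Its levels were 805.0 and 811.5 in ND and 548.4 and 704.4 TPM in HFD, with both HFD values below both ND values. The log2 difference of -0.38 did not pass the test (limma adjusted p = 0.145). Leaving out HFD replicate 1 gave -0.20 and leaving out HFD replicate 2 gave -0.56, with limma adjusted p = 0.0463 and 0.0276 and both under 1.5-fold. Beside it, erythroid genes summed to 1803 and 1737 in ND and 866 and 1498 TPM in HFD. The part of red cells in the Hmox1 values was not tested.

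Prdx1 took a larger share of the RNA of its family in HFD, and none of Prdx2 to Prdx6 reached a call. Of these, named after their values were seen, Prdx2 (log2 difference 0.54) and Prdx4 (0.44) passed the adjusted p upward (limma adjusted p = 0.0242 and 0.0181). Prdx5, at 601.8 and 588.0 in ND and 408.9 and 463.8 TPM in HFD, passed it downward (-0.45, limma adjusted p = 0.0341). All of these changes were under 1.5-fold. Prdx1 made up 36.1% and 37.1% of the summed TPM of Prdx1 to Prdx6 in ND and 63.4% and 66.9% in HFD, and the sum itself went from 1350 and 1361 TPM to 2021 and 2458 TPM. The ratio of Prdx1 to Prdx5, the mitochondrial and peroxisomal form, went from 0.809 and 0.859 to 3.13 and 3.55, and the ratio to Prdx2, another cytosolic form, from 4.91 and 4.97 to 9.29 and 10.6. Of 13 other thioredoxin and peroxiredoxin genes, all tested, 1 was called higher and 1 lower (2 of 13, beside 18.4% of all genes tested), with a median log2 difference of 0.08. Msra, a methionine sulfoxide reductase, rose from 3.8 and 3.6 TPM to 7.5 and 7.4 TPM (log2 difference 0.85, limma adjusted p = 0.0131). Txn2, the mitochondrial thioredoxin, fell from 301.5 and 306.1 TPM to 206.7 and 196.2 TPM (-0.59, limma adjusted p = 0.00911). With a pseudocount of 5 both lost the call, as their log2 differences of 0.52 and -0.58 were then under 1.5-fold, and with the replicate block (limma adjusted p = 0.0793 and 0.0537). Without HFD replicate 2 Txn2 lost it as well (-0.55), and without HFD replicate 1 the list had 4 calls, beside 3051 of all 16849 genes tested. Txnip, the thioredoxin inhibitor, was at 328.6 and 349.3 in ND and 264.2 and 233.4 TPM in HFD, a log2 difference of -0.45 (limma adjusted p = 0.0393) that was under 1.5-fold. With quantile normalization it was -0.59 and passed both limits (limma adjusted p = 0.0193). The ratio of Txnrd1 to Txn1 was 0.167 and 0.187 in ND and 0.153 and 0.158 in HFD.

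**Figure D4:**
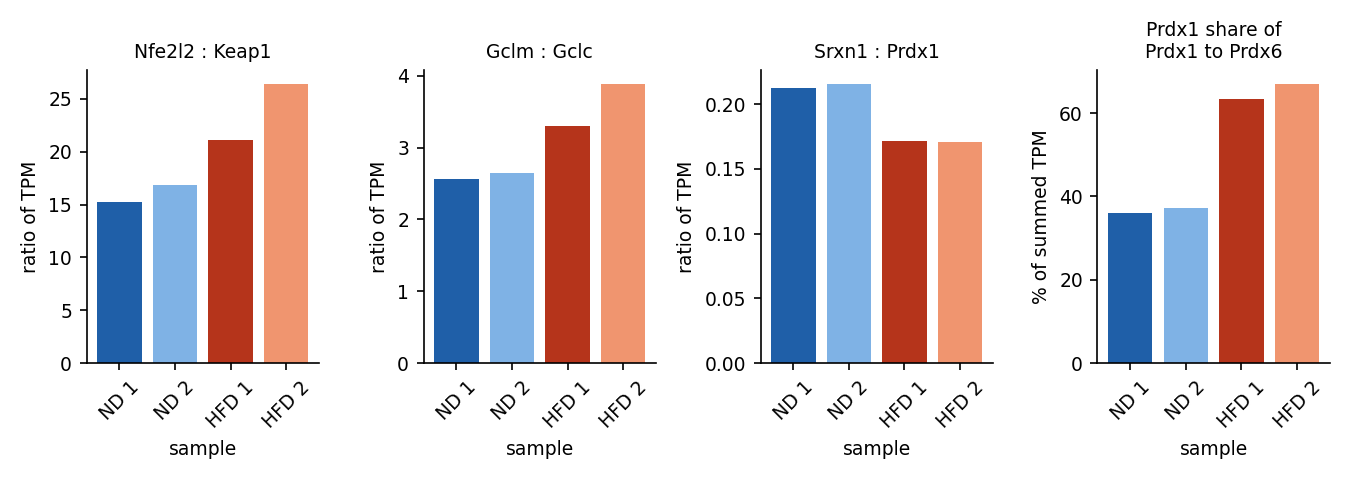
Bars from 0 give, for each of the 4 samples, the TPM ratios Nfe2l2 to Keap1, Gclm to Gclc and Srxn1 to Prdx1, and Prdx1 as a percent of the summed TPM of Prdx1 to Prdx6; a single scaling factor per sample leaves such ratios as they are, and quantile normalization does not. The Prdx1 share shows a wide gap between the diets, from 36.1% and 37.1% in ND to 63.4% and 66.9% in HFD.

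Of 18 other glutathione genes 17 were tested, 3 were called higher and 0 lower by limma, beside 8.08% and 10.3% of all genes tested (7 at an unadjusted p under 0.05 in either direction, where 42.3% of all genes tested were), and the median log2 difference was 0.25. With HFD replicate 1 or HFD replicate 2 left out 5 of the 17 were called, beside 3051 and 4232 of all 16849 genes tested. Esd, an esterase that releases glutathione from its formyl adduct, rose from 41.6 and 43.5 TPM to 102.9 and 130.6 TPM (log2 difference 1.43, limma adjusted p = 0.0130). Gpx7 rose from 12.4 TPM in both ND samples to 23.7 and 31.7 TPM, and Gsto1, an omega-class glutathione transferase, from 89.4 and 92.1 TPM to 152.5 and 169.9 TPM (limma adjusted p = 0.0275 and 0.0112). Gpx7 lost its call with no filter and with the replicate block (limma adjusted p = 0.0590 and 0.0714). Of 10 genes for making or removing superoxide 9 were tested and 1 was called, beside 18.4% of all genes tested. Rac2, a GTPase of the phagocyte NADPH oxidase, fell from 365.1 and 361.9 TPM to 208.9 and 213.4 TPM (log2 difference -0.78, limma adjusted p = 0.00530). The median log2 difference of the 9 was 0.12, with 5 genes higher and 1 lower in both HFD samples, beside 34.1% and 32.8% of all genes tested. Named after their values were seen, Cybb and Cyba, the membrane subunits of that oxidase, and Sod1, a superoxide dismutase, passed the adjusted p upward but were under 1.5-fold, and their log2 differences were 0.39, 0.41 and 0.21 (limma adjusted p = 0.0349, 0.0269 and 0.0342).

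**Figure D5:**
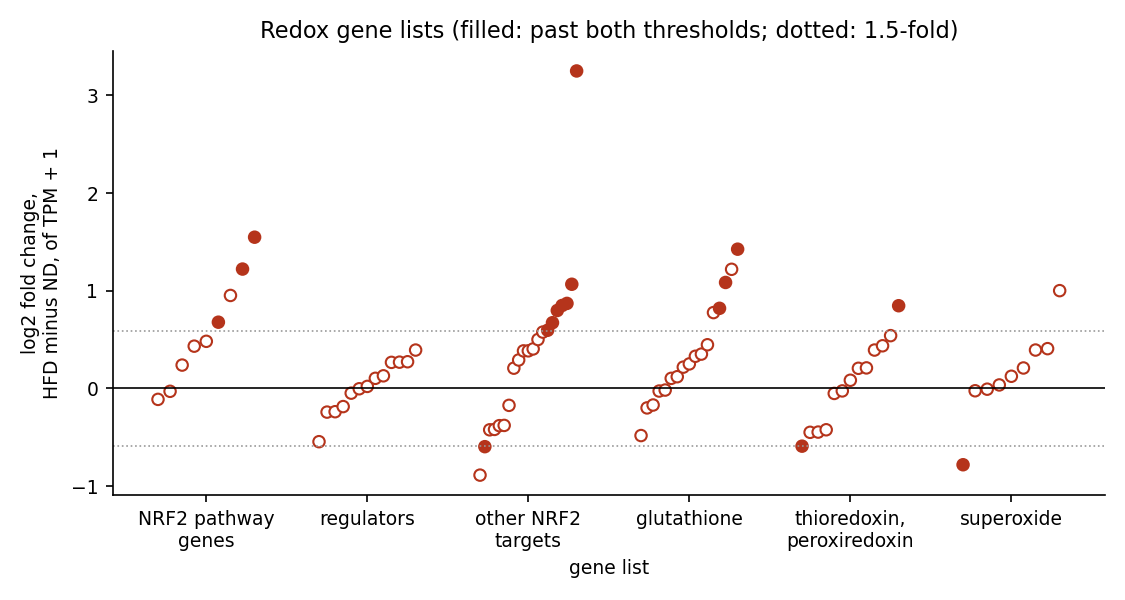
Log2 difference (HFD minus ND, log2(TPM + 1) scale) of each tested gene in the member list and the 5 other redox lists, with called genes filled and dotted lines at 1.5-fold. No regulator is filled, and Akr1b8 at 3.25 stands highest among the other NRF2 targets.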

How the data were processed

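Stranded poly(A) RNA libraries were sequenced from 4 samples (2 ND, 2 HFD). According to the submitters' processing notes the authors trimmed reads with Trim Galore 0.4.2 and cutadapt 1.9.1, aligned them to mm10 with STAR 2.6.1e, removed duplicate reads with Sambamba and counted genes with featureCounts 1.6.2. The authors deposited the values as TPM, printed to 1 decimal. The annotation and the strand setting are not given in the sources used here. Removing duplicates can lower the values of abundant genes most. Each value is relative to its own library, so a change in a few abundant genes shifts the others.

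From these, log2(TPM + 1) was fitted with limma 3.58.1 (R 4.3.3, lmFit and eBayes with a trend) on diet, over genes with at least 1 TPM in at least 2 samples, and checked on simulated data. Tests were two-sided. A fold change on this scale understates the change of low genes. An exact permutation test of 2 against 2 samples cannot go below p = 0.333, so none was used. Depth was estimated from the step between values of short microRNA genes. It limits the lowest members most. The replicates of each diet differed by more than counting error. Their spread was 1.44 times that error in ND and 3.16 times in HFD, while the fit gave both diets a shared variance per gene.

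The members and gene lists were chosen with earlier results of these data known. The genes named beside the members were, from each other list, up to 3 called genes with the largest increase and up to 3 with the largest decrease whose diets did not overlap, and always Hmox1, Sqstm1, Bach1, Slc3a2, Txn1 and Txnip. Alternatives were other pseudocounts (0.1 and 5), filters (none, or a mean of at least 5 TPM), scalings (median-ratio, quantile, or without the 50 most abundant genes), no trend, a replicate block and leaving out each sample. Promoter windows came from RefSeq (GRCm38.p6) and gene positions from GENCODE vM21 (mm10).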

Additional observations from a re-analysis of the deposited data

How the results depend on the processing

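Prdx1 and Srxn1 kept their calls under all 9 alternatives that used all 4 samples. Txnrd1 lost its call in 4 of them: with no filter, with the replicate block, with median-ratio scaling and with quantile normalization. With quantile normalization its log2 difference of 0.56 was under 1.5-fold (limma adjusted p = 0.0459). In the others its limma adjusted p was over the threshold, at 0.0601, 0.0576 and 0.0656 in that order. The 3097 genes called over all genes became 2015 with a pseudocount of 5 and 812 with a replicate block, and the 14 called genes of the other lists became 4 with the block, which left 1 of 8 among the other NRF2 targets and 0 of 2 in the thioredoxin list. The correlation over genes between the deviations of same-numbered samples from their diet means was -0.015. With 2 samples per diet, this value cannot show whether same-numbered samples shared a batch.

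With each sample left out in turn, where the lone sample of a diet is assumed to vary like the other diet, the count over all genes ran from 0 to 4232, the members called higher from 0 to 3, the called genes of the other lists from 0 to 21 and the members' median log2 difference from 0.33 to 0.65. The counts of 0 came without either ND sample, a setting that ended every call named in the text. Leaving samples out also turned the sign of Nqo1 (-0.29 to 0.23), Gsr (-0.065 to 0.54), Sqstm1 (-0.027 to 0.069) and Bach1 (-0.10 to 0.0038). Sqstm1 was at -0.011 with median-ratio scaling, -0.0050 with quantile normalization and -0.040 without the 50 most abundant genes. Over 25 named genes and 313 recomputed values, 261 kept their direction and side of the threshold, 43 lost the call, 1 gained it and 8 changed sign. The filters, the fit with no trend and the replicate block leave a gene's log2 difference as it is, so its direction could not change there. A gene called in neither fit also counts as keeping its side. Slc7a11 was left out by the filter of 1 TPM, and 2 samples per diet limit every interval.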
